A study of Mus musculus with 12 samples.

Results

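The 41 genes described here act in G2 and mitosis. They were listed by name, from the cyclins and Cdk1 through the mitotic kinases to the motors and the chromosome scaffold. No measured value enters the rule, but the list was drawn up with earlier results of these data known. Of the 41 genes, 40 were measured, among 13732 genes in all, and no probe set is paired with Ccnb1 in the annotation used here. Each measured gene is represented by the brightest of its kept probe sets, and 93 probe sets of the array are paired with these genes.

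The series holds 12 Affymetrix Mouse Genome 430 2.0 arrays, which measure mRNA, 3 in each of 4 groups. The groups were FoxO-deficient myeloid progenitors (MP, arrays 10 to 12), wild-type MP (arrays 7 to 9), FoxO-deficient LSK cells (arrays 4 to 6) and wild-type LSK cells (arrays 1 to 3). LSK cells are the bone marrow fraction without lineage markers that carries Sca-1 and c-Kit and holds the stem cells, and MP are the progenitors that follow them on the way to myeloid and red cells. All mice carried loxP-flanked FoxO1, FoxO3 and FoxO4. The deficient groups were Mx-Cre+ and the wild-type groups Mx-Cre-, so the deficient mice alone had the transgene, and cells of pooled mice were sorted. Mx-Cre is driven by an interferon-inducible promoter and is active in many cell types besides blood. The labels give neither the ages of the mice nor the induction of Cre. RNA was labelled in triplicate. Whether each array had a pool of mice of its own is not stated, so the spread behind each p-value is that among these arrays and could be technical.

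FoxO1, FoxO3 and FoxO4 are forkhead transcription factors that are kept out of the nucleus by insulin and growth factor signalling through AKT. They are known for holding blood stem cells in quiescence and for inducing inhibitors of the cell cycle. Entry into mitosis is driven by Cdk1 bound to A and B type cyclins, the mitotic kinases build and check the spindle, and the anaphase-promoting complex (APC/C) ends mitosis by marking cyclin B and securin for destruction. Transcription of these genes peaks in G2 and mitosis, and a population with more dividing cells holds more of their mRNA. In bulk samples such as these, more dividing cells and more of the mRNA in each cell cannot be told apart.

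Many promoters of G2 and mitosis genes are known to hold a cell cycle genes homology region (CHR), which is bound by the LIN54 subunit of the DREAM and MuvB complexes, and CCAAT boxes, which are bound by NF-Y. Promoters of 34 of the 41 genes were found in the RefSeq table (GRCm38.p6), each covering 250 bases before and 50 after a transcription start, and Prc1 and Ect2 had 2 starts each. No promoter was read for Ccna2, Cdc25c, Aurkb, Incenp, Kif20a, Tpx2 and Smc4. On either strand, the CHR letters TTTGAA were found in the promoters of 24 of the 34 genes (70.6%), against 5466 of 27025 genes in the whole table (20.2%). Within 50 bases of the start, or after it, they stood in 21 of the 34 genes (61.8%) and in 5.72% of all genes. The variant TTCGAA was found in 4 of the 34 (11.8%, against 1.80%), and CCAAT in 28 of the 34 (82.4%, against 41.1%). The forkhead core GTAAACA was found in Ect2 alone, 1 of the 34 (2.94%, against 4.05%). Matches of different motifs did not overlap in the promoters printed here. These are counts of letters in a window and do not show that a factor is bound.

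The promoters of Cdk1, Aurka, Ttk and Cenpa are printed because these genes were higher in MP than in LSK cells in both genotypes and hold both TTTGAA and CCAAT, and Ect2 because it alone holds the forkhead letters and because it had the lowest p of the list for the mean FoxO effect described further on. Capitals mark matches to the 4 motifs on either strand, so that a match on the other strand reads as the reverse complement.
Cdk1, chr10:69352863-69353162, minus strand, GRCm38.p6: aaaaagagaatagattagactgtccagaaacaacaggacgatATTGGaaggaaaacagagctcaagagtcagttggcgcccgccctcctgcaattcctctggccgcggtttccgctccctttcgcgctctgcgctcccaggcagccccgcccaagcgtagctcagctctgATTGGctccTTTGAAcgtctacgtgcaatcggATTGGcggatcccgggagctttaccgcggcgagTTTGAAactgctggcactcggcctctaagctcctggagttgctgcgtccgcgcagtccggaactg
Aurka, chr2:172370521-172370820, minus strand, GRCm38.p6: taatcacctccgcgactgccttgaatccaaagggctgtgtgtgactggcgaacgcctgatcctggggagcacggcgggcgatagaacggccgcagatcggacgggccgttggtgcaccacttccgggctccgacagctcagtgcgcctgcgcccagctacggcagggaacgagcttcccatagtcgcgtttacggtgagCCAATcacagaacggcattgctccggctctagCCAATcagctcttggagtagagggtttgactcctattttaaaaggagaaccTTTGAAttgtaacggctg
Ttk, chr9:83834439-83834738, plus strand, GRCm38.p6: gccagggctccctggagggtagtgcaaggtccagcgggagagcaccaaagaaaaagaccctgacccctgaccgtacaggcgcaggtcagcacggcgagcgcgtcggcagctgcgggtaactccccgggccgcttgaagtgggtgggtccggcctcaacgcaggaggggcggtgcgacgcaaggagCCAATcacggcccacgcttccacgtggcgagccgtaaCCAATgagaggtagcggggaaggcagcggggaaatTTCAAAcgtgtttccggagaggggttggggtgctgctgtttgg
Cenpa, chr5:30666636-30666935, plus strand, GRCm38.p6: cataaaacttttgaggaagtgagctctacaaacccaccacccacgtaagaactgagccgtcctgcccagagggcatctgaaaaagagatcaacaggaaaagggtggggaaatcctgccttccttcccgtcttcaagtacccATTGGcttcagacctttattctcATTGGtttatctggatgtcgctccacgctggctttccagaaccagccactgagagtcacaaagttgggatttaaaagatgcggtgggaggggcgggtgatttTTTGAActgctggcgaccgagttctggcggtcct
Ect2, chr3:27153829-27154128, minus strand, GRCm38.p6: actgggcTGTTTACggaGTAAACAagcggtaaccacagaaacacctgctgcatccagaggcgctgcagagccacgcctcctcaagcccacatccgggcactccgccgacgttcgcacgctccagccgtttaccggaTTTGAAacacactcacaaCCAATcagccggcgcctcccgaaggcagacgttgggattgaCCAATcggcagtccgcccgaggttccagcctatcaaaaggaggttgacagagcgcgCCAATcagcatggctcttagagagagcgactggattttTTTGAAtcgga

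All 5 windows hold CCAAT boxes before a CHR that lies near the start. The promoters of Plk4, Birc5, Mad2l1 and Nusap1 held none of the 4 motifs in this window. TTTGAA was found in 12 of 19 genes that were called in either cell type comparison below (63.2%) and in 12 of 14 measured genes called in neither (85.7%).

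**Figure D1:**
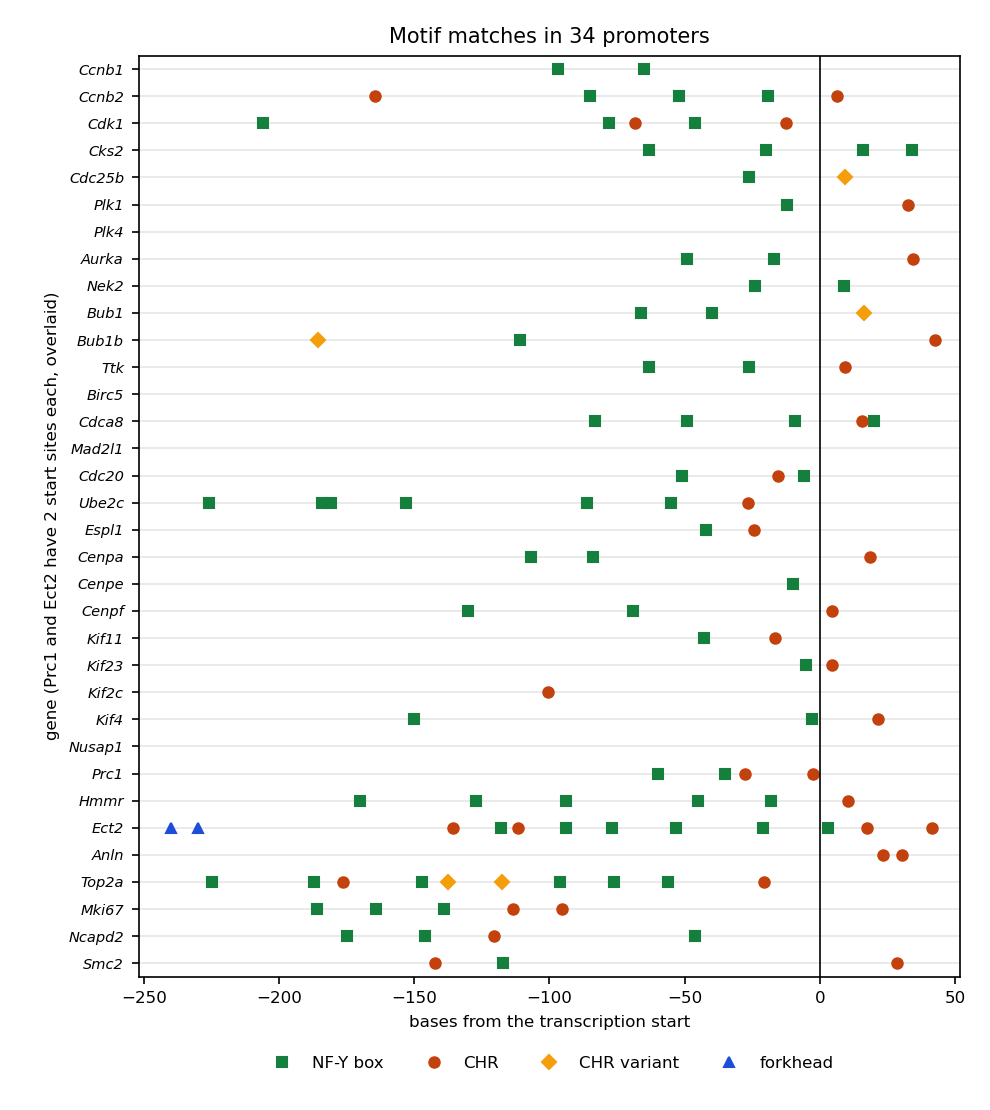
Positions of motif matches in the promoters of 34 G2 and mitosis genes, in bases from the transcription start (x axis), 1 row a gene (y axis). Squares are CCAAT (NF-Y) boxes, circles the CHR, diamonds its variant and triangles the forkhead core. The CHR matches gather near the start, with the CCAAT boxes mostly upstream of them.

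Levels are normalised intensities, on a linear scale for single arrays and as means of logarithms for groups, and changes are differences of log2 intensity. A gene is called where the Benjamini-Hochberg adjusted p of limma, over all 13732 genes, is under 0.05. The highest bacterial control lay between 5.14 and 13 on the 12 arrays, and of the 40 genes only Plk1 on array 2 did not exceed it. Array 2, a wild-type LSK array, stood apart: the ratio of 3' to 5' signal was 344 for Gapdh and 145 for Actb, against 1.77 to 2.37 and 2.74 to 3.36 on the other 11 arrays. On array 2, 15 of the 40 genes differed by more than 2-fold from the mean of the other wild-type LSK arrays, 10 upward and 5 downward, as did 41.8% of all genes. Cenpf, a kinetochore protein, read 208 there and 28.2 and 29.3 on the other wild-type LSK arrays. Ube2c, the ubiquitin-conjugating enzyme of the APC/C, read 110 there and 514 and 525 on the others. Results are therefore also given without array 2. All 4 groups share 1 estimate of the spread, so leaving it out changes the error of every comparison. The error narrowed for most genes named with statistics but not for all. For Cdc25c between wild-type MP and wild-type LSK cells it went from 0.246 to 0.247.

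Of the deleted genes, Foxo4 was 59.1, 59.3 and 61.3 in FoxO-deficient MP against 350, 309 and 332 in wild-type MP, and 67.2, 93.8 and 100 in FoxO-deficient LSK cells against 347, 366 and 479 in wild-type LSK cells. It was called lower in both (-2.46 and -2.20, adjusted p = 0.000114 and 0.00162). Foxo1 was dim (-0.90 and -1.94, adjusted p = 0.609 and 0.263, the second -1.27 without array 2), its LSK groups not overlapping. Another Foxo1 probe set differed by -1.39 in MP and -1.23 in LSK cells, without overlap in either. A dimmer one differed by -1.79 and -0.63, and another went the other way (1.15 and 0.62). Foxo3 had positive changes without a call with all arrays (0.38 and 0.22, adjusted p = 0.299 and 0.561). Its MP groups did not overlap, and without array 2 it was called higher in FoxO-deficient MP (adjusted p = 0.0396). Another bright Foxo3 probe set differed by 0.71 in MP and 0.66 in LSK cells, where array 2 was low (820 against 2395 and 2815). A dim one differed by -0.06 and 0.13. Where these probe sets lie relative to the deleted parts is not stated, so for Foxo1 and Foxo3 they do not check the labels.

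The markers of LSK cells, granulocyte-monocyte progenitors and erythroid cells followed the sort. Of 10 measured LSK and stem cell markers, 8 were called lower in FoxO-deficient MP (9.39% of all genes) and 9 in wild-type MP (11.5%) than in LSK cells. Their summed intensity was 1759 to 1926 in FoxO-deficient MP, 1545 to 1685 in wild-type MP, 6544 to 6974 in FoxO-deficient LSK and 6819 to 7305 in wild-type LSK. Of 8 granulocyte-monocyte progenitor markers, 7 were called higher in MP in each genotype (10.2% of all genes in FoxO-deficient and 9.95% in wild-type cells). Of 8 erythroid markers, 6 were, with sums of 9222 to 9570 in FoxO-deficient MP, 10928 to 11686 in wild-type MP, 4388 to 4622 in FoxO-deficient LSK and 3153 to 4816 in wild-type LSK. The 6 late neutrophil markers summed higher in LSK cells, at 8493 to 8731 against 6263 to 6558 in FoxO-deficient MP, and at 5914 to 8098 against 4439 to 4567 in wild-type MP. The 5 megakaryocyte markers summed to 353 to 388 in FoxO-deficient LSK against 266 to 330 in FoxO-deficient MP. In wild-type cells they summed to 191 to 337 in LSK against 390 to 431 in MP. The part of these markers in the results below was not tested. In all groups the summed levels of 2 T and NK cell markers stayed at 18.2 or less.

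Across the 12 arrays the G2 and mitosis genes stood higher in MP than in LSK cells, in both genotypes. The median of the 40 genes, each set against its own mean over the 12 arrays, was 0.30 to 0.34 (log2) in FoxO-deficient MP and 0.27 to 0.30 in wild-type MP. It was -0.31 to -0.22 in FoxO-deficient LSK cells and -0.49 to -0.23 in wild-type LSK cells, the value of -0.23 being array 2. The MP arrays and the LSK arrays did not overlap in this median. The genotypes overlapped in MP, and in LSK cells they overlapped through array 2 alone, the other wild-type LSK arrays (-0.40 and -0.49) lying below all FoxO-deficient LSK arrays.

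**Figure D2:**
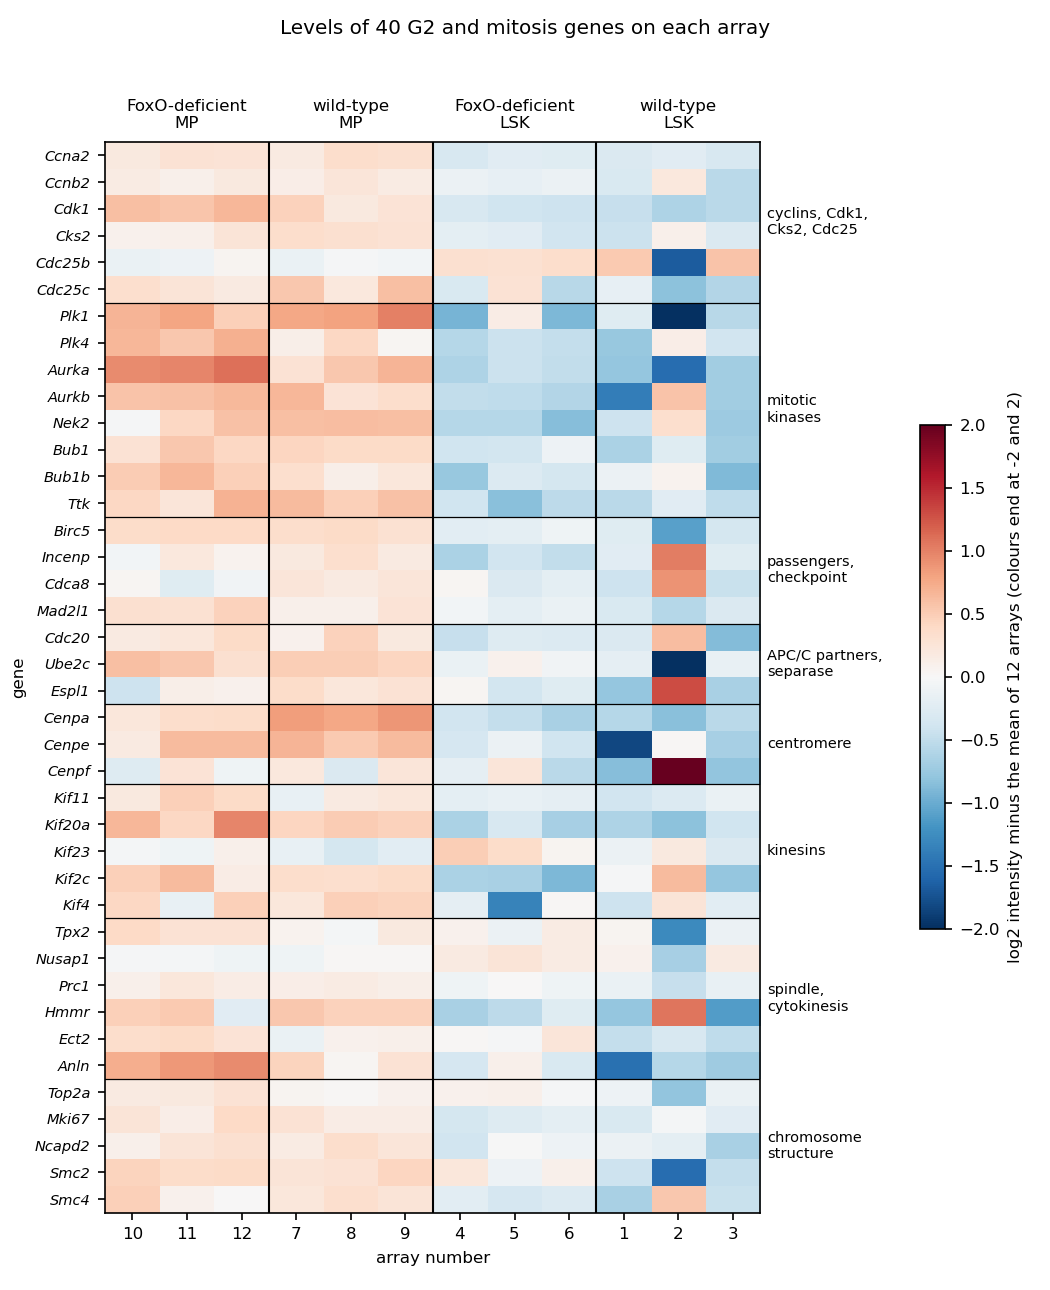
Levels of 40 G2 and mitosis genes (rows, ordered by role) on 12 arrays (columns, by group), as log2 intensity minus the gene's mean over 12 arrays. Most rows are red on the 6 MP arrays and blue on the LSK arrays, and array 2 departs from both neighbours in many rows.

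In FoxO-deficient cells, 15 of the 40 genes were called higher in MP than in LSK cells (37.5%), where 10.2% of all genes were, and none was called lower, where 9.39% were. In wild-type cells, 17 of the 40 were called higher in MP (42.5%, against 9.95% of all genes) and none lower (11.5%). The change was positive for 37 and 38 of the 40 genes, with a median of 0.53 in each genotype, against 0.11 and 0.02 over all genes. On all 3 MP arrays 32 of the 40 lay above all 3 LSK arrays in FoxO-deficient cells (30.0% of all genes did) and 23 of the 40 in wild-type cells (18.2%). Below all LSK arrays lay 2 of the 40 in FoxO-deficient cells, Cdc25b and Nusap1 (22.4% of all genes), and 0 in wild-type cells (17.6%). The 2 comparisons share no array, but their calls share the estimate of each gene's spread. They have 10 called genes in common, Ccna2, Cdk1, Aurka, Nek2, Bub1, Ttk, Mad2l1, Cenpa, Kif20a and Anln, which is 66.7% of the FoxO-deficient calls and 58.8% of the wild-type calls. Over all genes, 57.5% and 59.2% of the calls were shared.

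Without array 2, 26 of the 40 were called higher in MP in FoxO-deficient cells (21.6% of all genes) and 33 in wild-type cells (17.9%). Called then but not with all arrays were Aurkb, Birc5, Ccnb2, Cdc20, Cks2, Hmmr, Incenp, Plk1, Smc2, Smc4 and Ube2c in FoxO-deficient cells. In wild-type cells they were Aurkb, Bub1b, Ccnb2, Cdc20, Cdca8, Cenpf, Ect2, Espl1, Hmmr, Incenp, Kif2c, Mki67, Plk4, Prc1, Smc4 and Ube2c. Cdc25b and Nusap1 were called lower in FoxO-deficient MP (15.7% of all genes), and Cdc25b in wild-type MP (16.1%). With the spread taken from just the 2 groups compared, 23 genes were called higher (19.9% of all genes) and Cdc25b lower (14.7%) in FoxO-deficient MP. In wild-type MP only Aurka, Cenpa, Kif20a and Ttk were then called higher (2.91% of all genes).

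**Figure D3:**
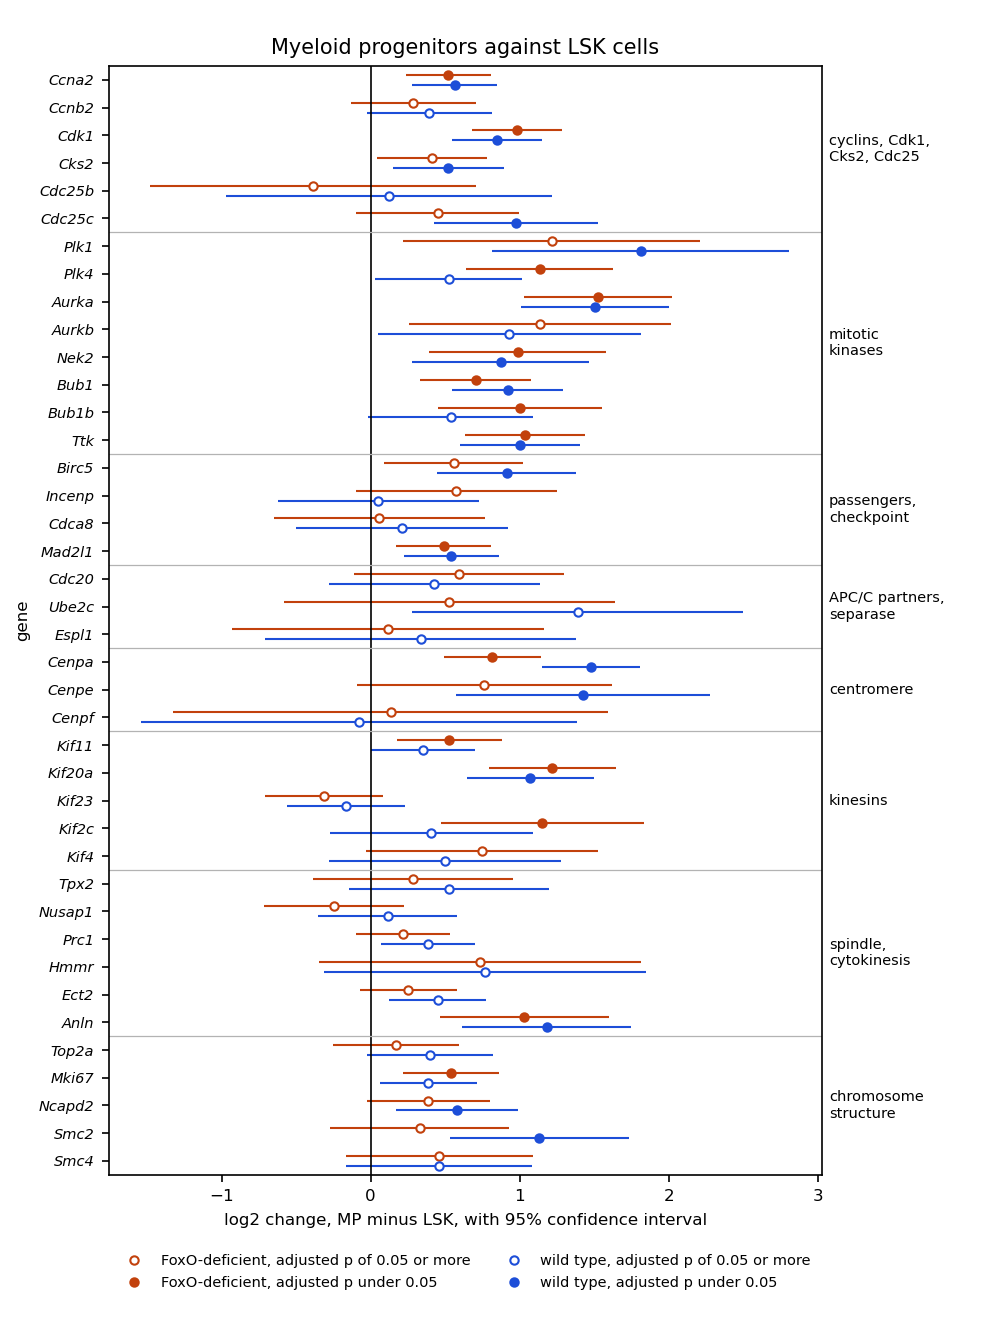
Log2 change between MP and LSK cells (x axis) for 40 genes (rows, by role), in FoxO-deficient cells (orange) and wild-type cells (blue), with 95% confidence intervals of limma. Filled points have an adjusted p under 0.05, and nearly all points lie right of 0.

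The mitotic kinases were mostly higher in MP. Of 8 kinases, 6 were called higher in MP in FoxO-deficient cells (10.2% of all genes were) and 5 in wild-type cells (9.95%). Without array 2 all 8 were in both, where the shares of all genes rose to 21.6% and 17.9%. Aurka, the kinase of centrosomes and spindle poles, read 96.3, 98.2 and 107 in FoxO-deficient MP, against 32.4, 36.9 and 35.5 in FoxO-deficient LSK cells. It read 61.2, 72.4 and 79.7 in wild-type MP, against 29.0, 17.4 and 30.6 in wild-type LSK cells. Every MP array stood above every LSK array, by 2.88-fold in FoxO-deficient cells (log2 1.52 ± 0.22 SE, adjusted p = 0.0011) and 2.84-fold in wild-type cells (adjusted p = 0.00121). Ttk, the Mps1 kinase of the spindle checkpoint, read 215, 191 and 262 in FoxO-deficient MP, against 122, 90.8 and 113 in FoxO-deficient LSK cells. Wild-type MP had 251, 226 and 244 and wild-type LSK cells 111, 138 and 113. The groups did not overlap, and the changes were 1.03 ± 0.18 and 1.00 ± 0.18 (adjusted p = 0.00319 and 0.00372). The 95% interval of the difference between these changes was -0.54 to 0.61.

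Bub1, which recruits checkpoint proteins to kinetochores, read 228, 271 and 247 in FoxO-deficient MP against 142, 144 and 173 in FoxO-deficient LSK cells, and 250, 242 and 243 in wild-type MP against 120, 157 and 115 in wild-type LSK cells. Its changes were 0.70 ± 0.17 (adjusted p = 0.015) and 0.92 ± 0.17 (adjusted p = 0.00375). Nek2, a kinase that parts the centrosomes, was dimmer, at 23.1, 31.2 and 35.3 in FoxO-deficient MP against 15.8, 15.9 and 13.1 in FoxO-deficient LSK cells. Wild-type MP had 35.6, 36.0 and 35.6 and wild-type LSK cells 17.7, 29.7 and 14.3. Its wild-type call was near the threshold (0.87 ± 0.27, adjusted p = 0.0433), the FoxO-deficient one a little further from it (0.99 ± 0.27, adjusted p = 0.0276).

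Plk4, which starts centriole duplication, was called in FoxO-deficient cells, at 457, 418 and 470 in MP against 194, 212 and 207 in LSK cells (1.13 ± 0.22, adjusted p = 0.00564). In wild-type cells it read 311, 382 and 295 in MP against 170, 317 and 220 in LSK cells, which overlap (0.52 ± 0.22, adjusted p = 0.126). Bub1b (BubR1), part of the checkpoint complex that restrains the APC/C, was likewise called in FoxO-deficient cells (228 against 114 in the group means, 1.00 ± 0.25, adjusted p = 0.0182) and had a change of 0.54 ± 0.25 in wild-type cells (adjusted p = 0.159). Plk1, the kinase that drives entry into mitosis and spindle assembly, was called in wild-type cells, at 65.3, 66.5 and 77.1 in MP against 32.3, 9.21 and 26.0 in LSK cells. Its 1.81 ± 0.45 (adjusted p = 0.0177) rests in part on array 2, the array on which it did not exceed background. Without that array it was 1.26 (adjusted p = 0.0138), below Cenpe, Aurkb, Hmmr, Cenpa and Anln. In FoxO-deficient cells Plk1 had 60.9, 66.3 and 53.3 in MP against 20.0, 42.2 and 20.4 in LSK cells (1.21 ± 0.45, adjusted p = 0.0874). Aurkb, the kinase of the chromosomal passenger complex, was not called in either genotype with all arrays, having 61.9, 240 and 99.6 in wild-type LSK cells. Its changes were 1.14 and 0.93, and 1.14 and 1.47 without array 2 (adjusted p = 0.00141 and 0.000795).

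For none of these kinases did the change between the cell types differ between the genotypes past the threshold. The difference of Plk4 was 0.61 (95% interval -0.09 to 1.31, adjusted p = 0.545) and that of Plk1 -0.60 (-2.01 to 0.81, adjusted p = 0.802).

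Cdk1, its cyclins and their partners came next. Of the 6 measured, 2 were called higher in MP in FoxO-deficient cells (10.2% of all genes) and 4 in wild-type cells (9.95%). Cdk1, whose promoter is printed above, read 767, 739 and 797 in FoxO-deficient MP against 404, 383 and 379 in FoxO-deficient LSK cells (0.98 ± 0.13, adjusted p = 0.000783). It read 697, 581 and 607 in wild-type MP against 368, 331 and 349 in wild-type LSK cells (0.85 ± 0.13, adjusted p = 0.00193). These are 1.98-fold and 1.80-fold differences with narrow groups. Ccna2 (cyclin A2), the cyclin of S phase and G2, moved less, with 790, 841 and 829 in FoxO-deficient MP against 551, 588 and 579 in FoxO-deficient LSK cells. Its level was 775, 879 and 858 in wild-type MP against 561, 588 and 549 in wild-type LSK cells. Its changes were 0.52 ± 0.13 and 0.56 ± 0.13 (adjusted p = 0.0179 and 0.0121).

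Cks2, the small partner of Cdk1, and Cdc25c, a phosphatase that activates it, were called in wild-type cells. Cks2 had 2345, 2273 and 2226 in wild-type MP against 1358, 1970 and 1501 in wild-type LSK cells (0.52 ± 0.17, adjusted p = 0.0497), at the edge of the threshold. Cdc25c had 189, 152 and 199 in wild-type MP against 116, 74.1 and 87.0 in wild-type LSK cells (0.98 ± 0.25, adjusted p = 0.0193). In FoxO-deficient cells their changes were 0.41 and 0.45 (adjusted p = 0.116 and 0.246). Ccnb2 (cyclin B2) had changes of 0.29 and 0.39 that missed the threshold with all arrays. Array 2 read 333 for it, against 233 and 198 on the other wild-type LSK arrays. Without array 2 Ccnb2 was called higher in MP in both genotypes.

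Cdc25b, the other phosphatase, went the other way on the arrays other than array 2. It had 215, 218 and 242 in FoxO-deficient MP against 294, 288 and 299 in FoxO-deficient LSK cells, without overlap, and 214, 231 and 225 in wild-type MP against 337, 73.7 and 347 in wild-type LSK cells, where the low value is array 2. With all arrays the changes were -0.39 (adjusted p = 0.643) and 0.12 (adjusted p = 0.893). Without array 2 they were -0.39 (adjusted p = 0.00687) and -0.62 (adjusted p = 0.00134).

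Of 3 centromere and kinetochore genes, 1 was called higher in MP in FoxO-deficient cells (10.2% of all genes) and 2 in wild-type cells (9.95%). Cenpa, the histone H3 variant that marks the centromere, read 412, 451 and 452 in FoxO-deficient MP against 269, 254 and 225 in FoxO-deficient LSK cells (0.82 ± 0.15, adjusted p = 0.00354). In wild-type cells it read 627, 602 and 653 in MP against 238, 198 and 242 in LSK cells (1.48 ± 0.15, adjusted p = 0.000113). The difference between these changes was -0.66 (95% interval -1.12 to -0.20), with an adjusted p of 0.244. The 2 other kept probe sets of Cenpa went the opposite way, at -0.46 and -1.31 in FoxO-deficient cells and -0.49 and -0.13 in wild-type cells, so the direction rests on the brightest probe set. Cenpe, the kinesin that moves chromosomes to the spindle equator, was called in wild-type cells, with 177, 160 and 173 in MP against 31.6, 114 and 70.4 in LSK cells (1.43 ± 0.38, adjusted p = 0.0255). In FoxO-deficient cells it had 126, 173 and 174 in MP against 88.5, 103 and 84.9 in LSK cells (0.76 ± 0.38, adjusted p = 0.204). Cenpf had changes of 0.13 and -0.08, the second resting on array 2 (208, against 28.2 and 29.3 on the other wild-type LSK arrays). Without array 2 it was called higher in MP in wild-type cells (17.9% of all genes) but not in FoxO-deficient cells.

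Of 5 kinesin motors, 3 were called higher in MP in FoxO-deficient cells (10.2% of all genes) and 1 in wild-type cells (9.95%). Kif20a, which carries passenger proteins to the central spindle, was called in both. It had 95.1, 80.1 and 119 in FoxO-deficient MP against 38.9, 48.4 and 38.2 in FoxO-deficient LSK cells (1.22 ± 0.19, adjusted p = 0.00169). It had 80.9, 85.6 and 83.1 in wild-type MP against 39.5, 34.3 and 45.7 in wild-type LSK cells (1.07 ± 0.19, adjusted p = 0.00338). Kif11, the motor that pushes the spindle poles apart, had 359, 435 and 409 in FoxO-deficient MP against 273, 283 and 275 in FoxO-deficient LSK cells (0.53 ± 0.16, adjusted p = 0.0406), and 0.35 ± 0.16 in wild-type cells (adjusted p = 0.147). Kif2c, a microtubule depolymerase of the centromere, had 86.9, 97.1 and 69.4 in FoxO-deficient MP against 40.3, 39.8 and 33.4 in FoxO-deficient LSK cells (1.15 ± 0.30, adjusted p = 0.0251), and 0.41 ± 0.30 in wild-type cells (adjusted p = 0.389). Kif4 was positive in both genotypes without a call, and Kif23, a motor of the central spindle, was negative in both (-0.31 and -0.17) without a call.

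The passenger proteins and the checkpoint protein Mad2l1 gave 1 call of 4 in FoxO-deficient cells and 2 of 4 in wild-type cells, all higher in MP (10.2% and 9.95% of all genes). Mad2l1, which blocks Cdc20 until all chromosomes are attached, had 623, 616 and 691 in FoxO-deficient MP against 480, 438 and 454 in FoxO-deficient LSK cells (0.49 ± 0.14, adjusted p = 0.0375). It had 536, 534 and 603 in wild-type MP against 405, 338 and 408 in wild-type LSK cells (0.54 ± 0.14, adjusted p = 0.0235). Birc5 (survivin), a passenger protein, had 2191, 2246 and 2120 in wild-type MP against 1445, 807 and 1340 in wild-type LSK cells (0.91 ± 0.21, adjusted p = 0.0126). In FoxO-deficient cells it had 2213, 2258 and 2262 in MP against 1479, 1492 and 1613 in LSK cells (0.56 ± 0.21, adjusted p = 0.0935). These groups do not overlap, though the second change was not called. Incenp and Cdca8, the other passenger proteins, were not called with all arrays. In wild-type LSK cells array 2 read 3555 for Incenp, against 1496 and 1480, and 1104 for Cdca8, against 446 and 435. Without array 2 both were called higher in wild-type MP, and Incenp also in FoxO-deficient MP.

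Of 6 spindle and cytokinesis genes, Anln alone was called with all arrays, in both genotypes (10.2% of all genes were called higher in FoxO-deficient MP and 9.95% in wild-type MP). Anln (anillin), which scaffolds the contractile ring, had 85.4, 95 and 100 in FoxO-deficient MP against 41.0, 55.4 and 42.0 in FoxO-deficient LSK cells (1.03 ± 0.25, adjusted p = 0.0178). It had 70.6, 53.1 and 63.5 in wild-type MP against 18.4, 35.1 and 31.7 in wild-type LSK cells (1.18 ± 0.25, adjusted p = 0.00917). The changes of Tpx2, Nusap1, Prc1, Hmmr and Ect2 ran from -0.25 to 0.73 in FoxO-deficient cells and from 0.11 to 0.77 in wild-type cells. The ends of the wild-type range, Nusap1 and Hmmr, rest in part on array 2 (727 against 1221 and 1294, and 460 against 128 and 101). Without array 2 Prc1, Hmmr and Ect2 were called higher in wild-type MP. In FoxO-deficient MP Hmmr was then called higher and Nusap1 lower. Nusap1, a microtubule bundling protein, had 1131, 1110 and 1083 in FoxO-deficient MP against 1294, 1370 and 1283 in FoxO-deficient LSK cells, below them on every array (-0.25, adjusted p = 0.468).

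Among 5 genes of chromosome structure, Mki67 was called higher in MP in FoxO-deficient cells (10.2% of all genes), and Ncapd2 and Smc2 in wild-type cells (9.95%), with all arrays. Mki67 (Ki-67), the coat of mitotic chromosomes and a common proliferation marker, had 1176, 1078 and 1298 in FoxO-deficient MP against 770, 816 and 857 in FoxO-deficient LSK cells (0.54 ± 0.14, adjusted p = 0.0267). In wild-type cells it had 1198, 1082 and 1089 in MP against 790, 952 and 839 in LSK cells, again without overlap (0.39 ± 0.14, adjusted p = 0.0864). The condensin subunit Smc2 had 894, 916 and 1007 in wild-type MP against 560, 260 and 539 in wild-type LSK cells (1.13 ± 0.27, adjusted p = 0.0151), the low value being array 2. In FoxO-deficient cells its change was 0.33 ± 0.27 (adjusted p = 0.451). Ncapd2, another condensin subunit, had 155, 177 and 164 in wild-type MP against 127, 120 and 88.3 in wild-type LSK cells (0.58 ± 0.18, adjusted p = 0.0499). Top2a, the topoisomerase that untangles sister chromatids, had changes of 0.17 and 0.40 without a call. The condensin subunit Smc4 had 0.46 in each genotype, without a call with all arrays. Array 2 read 1167 for it, against 514 and 592 on the other wild-type LSK arrays. Without array 2 Smc4 was called higher in MP in both genotypes.

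The genes that end mitosis gave no call. The APC/C activator Cdc20, Ube2c and the separase Espl1 had changes of 0.59, 0.53 and 0.12 in FoxO-deficient cells and of 0.43, 1.39 and 0.33 in wild-type cells, with array 2 far from the other wild-type LSK arrays for all 3. Without it, all 3 were called higher in MP in wild-type cells (17.9% of all genes). Cdc20 and Ube2c were in FoxO-deficient cells (adjusted p = 0.0233 and 0.00413, 21.6% of all genes).

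When all 25705 kept probe sets with 1 symbol were fitted together, 24 of the 90 kept probe sets of the list were called higher in MP in FoxO-deficient cells (7.93% of all probe sets were) and 1 lower (7.76%), and 29 higher in wild-type cells (8.30%). The 24 probe sets belong to 18 genes and the 29 to 25 genes. The 1 lower probe set is the dimmest of Cenpa (32.4 in FoxO-deficient MP against 80.3 in FoxO-deficient LSK cells, adjusted p = 0.0138). Of 28 genes with several kept probe sets, 6 had probe sets of opposite sign in FoxO-deficient cells (Anln, Bub1, Cenpa, Kif23, Nek2 and Plk4) and 7 in wild-type cells (Bub1b, Cenpa, Cenpf, Incenp, Kif23, Kif2c and Nusap1). For the FoxO effects described next, 17 of the 28 had probe sets of opposite sign in MP, 16 in LSK cells, 17 for the mean effect and 16 for the difference.

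Related gene lists were called mostly in the same direction. Of all genes, 10.2% were called higher and 9.39% lower in MP in FoxO-deficient cells, and 9.95% and 11.5% in wild-type cells. Of 84 measured other mitosis genes, 18 were called higher and 0 lower in FoxO-deficient MP than in LSK cells, with a median change of 0.39. In wild-type cells 25 were called higher and 1 lower, with a median of 0.51. The 1 lower gene was Cep55, a protein of the midbody (523 in wild-type MP against 792 in wild-type LSK cells, -0.60, adjusted p = 0.0152). Of 38 measured S phase genes, 11 were called higher and 0 lower in each genotype, with medians of 0.45 and 0.33. Without array 2, 36 of the other mitosis genes were called higher and 3 lower in FoxO-deficient MP, and 41 higher and 2 lower in wild-type MP. The S phase genes then gave 23 and 24 higher and 0 lower. Of all genes, 21.6% were then called higher and 15.7% lower in FoxO-deficient MP, and 17.9% and 16.1% in wild-type MP.

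**Figure D4:**
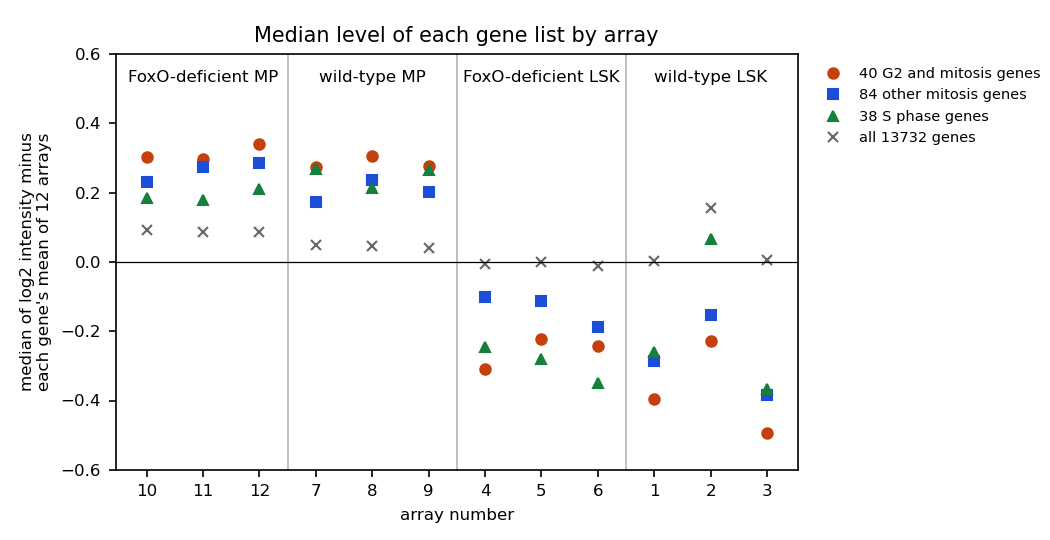
Median of log2 intensity minus each gene's mean over 12 arrays (y axis) for 4 gene lists on each array (x axis, by group). The medians of the 40 G2 and mitosis genes (circles) are 0.27 to 0.34 on the 6 MP arrays and -0.49 to -0.22 on the 6 LSK arrays, and array 2 lies apart in S phase genes and in all genes (crosses).

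Loss of FoxO gave no call among the 40 genes in either cell type. In MP, 0 of the 40 were called by limma with all arrays (1.84% of all genes were) and 3 had an unadjusted p under 0.05, with a median change of 0.01 against 0.04 over all genes. In LSK cells, none was called (0.269%), 4 having an unadjusted p under 0.05, with a median change of 0.12 against -0.04. For the mean effect over both cell types, none was called (1.86%), 7 having an unadjusted p under 0.05. For the difference of the effects between MP and LSK cells, none was called (0.859%), 1 having an unadjusted p under 0.05. At this number of arrays a small change could not be told from none. For all but the genes with an unadjusted p under 0.05, the 95% intervals in the plot of FoxO changes include changes of either sign.

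**Figure D5:**
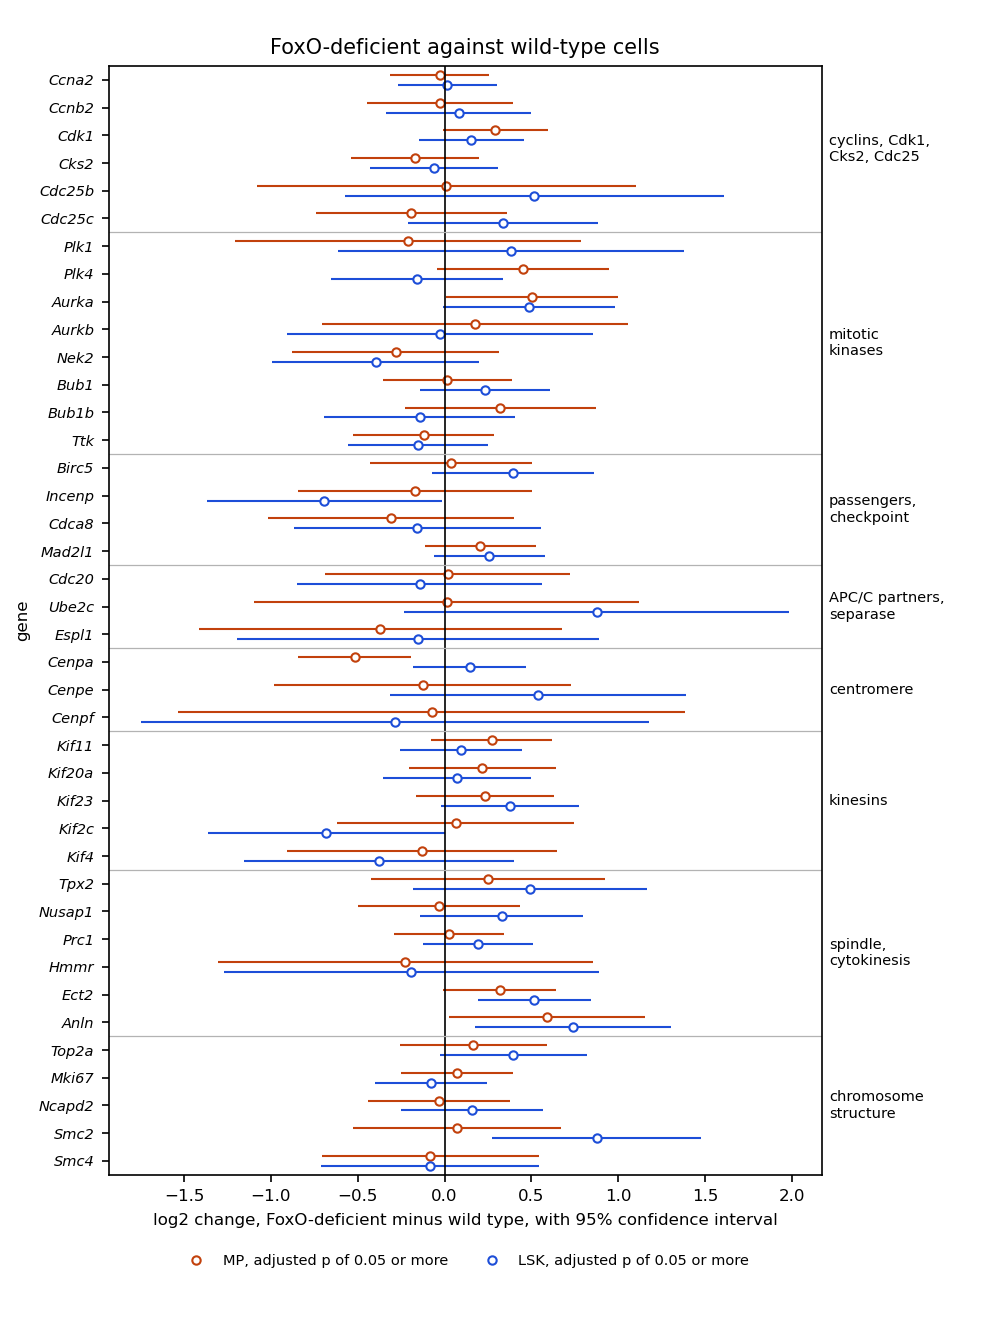
Log2 change between FoxO-deficient and wild-type cells (x axis) for 40 genes (rows, by role), in MP (orange) and LSK cells (blue), with 95% confidence intervals of limma. All points are open in both cell types, since none had an adjusted p under 0.05, and most intervals cross 0.

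Cenpa had the lowest p in MP. It was lower in FoxO-deficient MP, at 412, 451 and 452, against 627, 602 and 653 in wild-type MP, with no overlap (-0.52 ± 0.15, adjusted p = 0.132). The same direction was seen in all 3 of its kept probe sets (-0.52, -0.13 and -0.59). In LSK cells Cenpa had 269, 254 and 225 in FoxO-deficient cells against 238, 198 and 242 in wild-type cells (0.15, adjusted p = 0.685), which overlap. Aurka ran the other way, at 96.3, 98.2 and 107 in FoxO-deficient MP against 61.2, 72.4 and 79.7 in wild-type MP (0.51 ± 0.22, adjusted p = 0.372). Its LSK values were 32.4, 36.9 and 35.5 in FoxO-deficient cells against 29.0, 17.4 and 30.6 in wild-type cells (0.49, adjusted p = 0.444, and 0.23 without array 2). Its other kept probe set, near background, had the opposite sign in both cell types (-0.24 in MP and -0.85 in LSK cells).

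Anln and Ect2, a pair of cytokinesis genes, were higher on every FoxO-deficient array in both cell types, without a call. Ect2, the exchange factor that activates RhoA at the cleavage furrow, had 789, 802 and 742 in FoxO-deficient MP against 562, 651 and 661 in wild-type MP (0.32 ± 0.15, adjusted p = 0.395). It had 629, 606 and 730 in FoxO-deficient LSK cells against 444, 496 and 431 in wild-type LSK cells (0.52 ± 0.15, adjusted p = 0.238, the lowest of the list in LSK cells). Over both cell types its effect was 0.42 ± 0.10 (adjusted p = 0.086). Anln had effects of 0.59 ± 0.25 in MP (adjusted p = 0.357) and 0.74 ± 0.25 in LSK cells (adjusted p = 0.333), and of 0.66 ± 0.18 over both (adjusted p = 0.115), from the values given above. Its other kept probe set was dim, with -0.24 in MP and 0.85 in LSK cells, so in MP the direction rests on the brighter one. Ect2 has 1 kept probe set.

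Genes without overlap between the genotypes were counted next. In MP, 10 of the 40 lay above all wild-type arrays on all FoxO-deficient arrays (18.2% of all genes) and 5 below them (12.6%). The 5 were Cks2, Nek2, Cdca8, Espl1 and Cenpa. In LSK cells, 10 lay above (7.77%) and 1, Incenp, below (9.06%). The comparisons in MP and in LSK cells share no array, and 6 genes lay above in both, Anln, Aurka, Cdk1, Ect2, Mad2l1 and Top2a. These are 60% of each list of 10, while over all genes the shared ones were 14.7% of those in MP and 34.5% of those in LSK cells.

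The remaining genes with the lowest p were less clear. In MP, Cdk1 had an effect of 0.29 ± 0.13 (adjusted p = 0.404). In LSK cells, Smc2 had 873, 693 and 800 in FoxO-deficient cells against 560, 260 and 539 in wild-type cells (0.88 ± 0.27, adjusted p = 0.275), Kif2c had an effect of -0.68 ± 0.30 (adjusted p = 0.436), and Incenp one of -0.69 ± 0.30 (adjusted p = 0.428). Without array 2 the effect was 0.52 for Smc2 and -0.34 for Kif2c. All 3 genes, and Kif23, have other kept probe sets of the opposite sign in LSK cells. For Incenp the wild-type values were 1496, 3555 and 1480, the high one being array 2, and without it the effect was -0.27 (adjusted p = 0.323). Over both cell types Aurka had 0.50 ± 0.16 (adjusted p = 0.191), Smc2 0.47 ± 0.19 (adjusted p = 0.300) and Kif23 0.31 ± 0.13 (adjusted p = 0.312). The effects in MP and LSK cells differed most, by p, for Cenpa (above), Smc2 (-0.80, adjusted p = 0.498), Plk4 (0.61, adjusted p = 0.545), Kif2c (0.74, adjusted p = 0.611) and Cdc25c (-0.53, adjusted p = 0.667), none past the threshold. Without array 2 these were -0.44, 0.37, 0.40 and -0.38, and the mean effect of Smc2 was 0.29.

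Without array 2, which is not an MP array but shares the estimate of the spread, Cenpa was called lower (adjusted p = 0.0142) and Aurka higher (adjusted p = 0.0339) in FoxO-deficient MP, 2 of the 40, where 8.53% of all genes were called. Over both cell types Ect2 (0.45, adjusted p = 0.0159), Anln (0.75, adjusted p = 0.0329) and Aurka (0.37, adjusted p = 0.0450) were called higher, 3 of the 40, against 6.54% of all genes. In LSK cells and for the difference of the effects 0 were called, against 0.903% and 3.13% of all genes.

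Markers of other cells differed between the genotypes as well. In MP all 8 erythroid markers were lower in FoxO-deficient cells, and their sums are given above. None was called with all arrays, and 3 were called lower without array 2 (3.43% of all genes). In LSK cells 2 of the 8 had a positive change. There 4 lay below all wild-type arrays (9.06% of all genes) and 1 was called lower (0.146%). The sum of 6 eosinophil, basophil and mast cell markers was 922 to 970 in FoxO-deficient MP, 570 to 682 in wild-type MP, 295 to 356 in FoxO-deficient LSK and 84.8 to 184 in wild-type LSK cells. That of 6 late neutrophil markers was 6263 to 6558 in FoxO-deficient MP, 4439 to 4567 in wild-type MP, 8493 to 8731 in FoxO-deficient LSK and 5914 to 8098 in wild-type LSK cells. In MP 1 late neutrophil marker was called higher in FoxO-deficient cells (0.757% of all genes were). In LSK cells 1 late neutrophil marker and 1 eosinophil, basophil and mast cell marker were called higher (0.124%). The sum of 8 granulocyte-monocyte progenitor markers was 19248 to 19871 in FoxO-deficient MP against 15554 to 16099 in wild-type MP, and that of 5 B cell markers was 150 to 187 against 101 to 134. Of those 8 markers, 6 lay above all wild-type MP arrays (18.2% of all genes did) and 2 below them (12.6%), none being called. Of the 5 B cell markers, 3 had a positive change in MP and 1 was called lower. Lower sums were seen for 3 macrophage markers, 28.4 to 40.6 in FoxO-deficient MP against 91.4 to 150 in wild-type MP, and for 5 megakaryocyte markers, 266 to 330 against 390 to 431. Of the 3 macrophage markers Cd14 was called (-2.98) and 1 had a positive change. Their part in the values of the G2 and mitosis genes was not tested.

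Known regulators and brakes of the cell cycle were read on the same arrays. Of 18 regulators, 1 was called higher in FoxO-deficient MP (0.757% of all genes were), Rbl1 (p107), a pocket protein of the DREAM complex. Rbl1 had 753, 782 and 755 in FoxO-deficient MP against 484, 479 and 501 in wild-type MP (0.65 ± 0.13, adjusted p = 0.0448). Foxm1, a forkhead factor that activates G2 genes, was dim and above background on 2 of 3 wild-type MP arrays, with 28.2, 32.5 and 27.9 in FoxO-deficient MP against 29.5, 24.4 and 6.96 in wild-type MP (adjusted p = 0.552). Of 13 brakes on the cell cycle, 3 were called lower in FoxO-deficient MP (1.09% of all genes were) and 0 in LSK cells. Without array 2 it was 7 of 13 in MP (3.43% of all genes) and 0 in LSK cells. Cdkn1a (p21), an inhibitor of cyclin-dependent kinases, had 30.4, 34.9 and 34.1 in FoxO-deficient MP against 115, 109 and 115 in wild-type MP (-1.77 ± 0.30, adjusted p = 0.0157). Btg2 and Tob1, antiproliferative proteins of one family, had changes of -3.17 and -1.10 (adjusted p = 0.000174 and 0.00729). Btg2 was near background in FoxO-deficient MP, which limits the size of its change.

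Between the cell types the brakes split. Cdkn1a had 33.1 in FoxO-deficient MP against 590 in FoxO-deficient LSK cells (-4.16), and 113 in wild-type MP against 767 in wild-type LSK cells (-2.76), both called. The atypical cyclin Ccng2 was called lower in MP in both genotypes (-1.66 and -0.68). Btg2, near background in FoxO-deficient MP, and Tob1 were called lower in MP in FoxO-deficient cells (-4.07 and -1.70). The checkpoint kinase Chek2 was called higher in both (1.02 and 0.78), and Gadd45a, a stress-induced inhibitor of Cdk1, in wild-type cells (1.39). Of the 18 regulators, E2f4, E2f8 and Rbl1 were called higher (10.2% of all genes) and Lin54 lower (9.39%) in FoxO-deficient MP than in FoxO-deficient LSK cells. E2f4, E2f8 and Rb1 were called higher in wild-type MP than in wild-type LSK cells (9.95% of all genes). Lin54, whose product binds the CHR, had 269, 260 and 243 in FoxO-deficient MP against 502, 484 and 454 in FoxO-deficient LSK cells (-0.90 ± 0.14, adjusted p = 0.00181). In wild-type cells it had 361, 331 and 323 in MP against 328, 295 and 372 in LSK cells, which overlap (0.03, adjusted p = 0.895). The difference of the 2 changes was -0.93 (adjusted p = 0.0803, and 0.0182 without array 2).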

How the data were processed

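The authors deposited 1 table of linear intensity values, 1 column for each of 12 arrays and 45101 probe sets, per the file headers. The labels give labelling with the NuGEN Ovation Biotin system, and name no software that summarised the probes in what was used here. The values were taken as log2(intensity + 0.6), the offset being the 10th percentile, and quantile normalised. Probe sets were named from the platform annotation (34945 with 1 symbol, 932 with several, 9160 with none), and 34741 symbols were updated through the RefSeq gene table (GRCm38.p6). Probe sets above the 40th percentile of their array on at least 3 arrays were kept, and a gene took its brightest kept probe set. limma 3.58.1 in R 4.3.3 was fitted to all 12 arrays (lmFit, contrasts.fit, eBayes), with Benjamini-Hochberg adjustment over 13732 genes, and was tested on simulated data. The number of arrays limits the precision. The cell type comparisons, the FoxO effect in each cell type, its mean and its difference were tested. In each comparison the genes named with statistics are all those of the list that were called, or the 5 of lowest p where fewer were called. Others were named after their values were seen, mostly those that array 2 moves. The genes and lists were chosen with earlier results of these data known. Alternatives changed the offset, scaling, filter, probe set rule, variance model and arrays.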

Additional observations from a re-analysis of the deposited data

Results flagged for a closer look

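For 2 of the brakes on the cell cycle that were set beside the G2 and mitosis genes, the FoxO effect differed between the cell types by the test of the difference itself. Btg2, an antiproliferative protein, had 14.3, 19.4 and 11.3 in FoxO-deficient MP against 127, 132 and 137 in wild-type MP. It had 252, 255 and 233 in FoxO-deficient LSK cells against 204, 107 and 185 in wild-type LSK cells. The effect in MP minus that in LSK cells was -3.80 on the log2 scale (limma, adjusted p = 0.00104). The FoxO-deficient MP values of Btg2 lie near the highest bacterial control of those arrays (8.74, 9.04 and 10.1), which limits the size given. The low wild-type LSK value of 107 is array 2. Tob1, of the same family as Btg2, had 173, 142 and 137 in FoxO-deficient MP against 308, 351 and 309 in wild-type MP. Tob1 had 469, 445 and 550 in FoxO-deficient LSK cells against 393, 380 and 446 in wild-type LSK cells, and its difference was -1.37 (adjusted p = 0.0240). None of the 40 G2 and mitosis genes met this test.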

How the results depend on the processing

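Counts of genes called higher in MP moved most. In FoxO-deficient cells 15 became 23 when the spread came from just the 2 groups compared, 28 with array weights, 24 probe sets of 90 with all kept probe sets fitted together (chosen after seeing the data) and 6 to 26 with 1 array left out, at 6 without array 4, 8 without array 5 or 6, 7 without array 11, 9 without array 12 and 26 without array 2. The share of all genes called higher, 10.2%, moved with them to 19.9%, 23.1% and, with 1 array left out, 6.29% to 21.6%. In wild-type cells 17 became 4, 32, 29 probe sets and 9 to 33 under the same changes, at 9 without array 9, 11 without array 7 or 8 and 33 without array 2. Of all genes 9.95% were called higher, then 2.91%, 16.7% and 6.09% to 17.9%. In FoxO-deficient cells, 1 gene was called lower with just the 2 groups (14.7% of all genes) and 1 probe set with all kept probe sets (7.76%). With 1 array left out the genes called lower there numbered 0 to 2 (6.93% to 15.7% of all genes). In wild-type cells they numbered 1 with array weights (15.3%) and 0 to 1 with 1 array left out (8.43% to 16.1%). The median change was 0.676 with 75th percentile scaling and 0.514 to 0.556 with 1 array left out in FoxO-deficient cells. In wild-type cells it was 0.646 with that scaling, 0.619 with the mean of a gene's kept probe sets, 0.740 with array weights and 0.499 to 0.738 with 1 array left out. For FoxO effects, MP had 1 higher with array weights (5.48% of all genes). It had 1 lower with just the 2 groups (2.05%), with an offset of 32 (1.62%) and with array weights (3.48%). With 1 array left out it had 0 to 1 of each, against 0.269% to 5.10% of all genes higher and 0.604% to 3.43% lower. The mean effect had 2 higher with an offset of 32 (2.02% of all genes) and 1 with the 60th percentile filter (2.09%). It had 3 with array weights (3.63%), 1 with the trended robust prior (1.35%) and 0 to 3 with 1 array left out (0.335% to 3.55%). The median difference of the FoxO effects was -0.146 to -0.0174 with 1 array left out. With the mean of the kept probe sets the sign turned for Cenpa between FoxO-deficient cell types (-0.318), Smc2 in LSK cells (-0.0958) and in the difference (0.212), and Aurka in the mean effect (-0.0250). The causes were not tested. Called under all 21 alternatives were Aurka, Cdk1, Kif20a, Plk4 and Ttk in FoxO-deficient cells, and Kif20a and Ttk in wild-type cells. No paired analysis was possible because no replicate number is shared between groups. Dim genes such as Plk1 and Nek2 are near background, which limits their changes.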

Other observations

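Another kept probe set of Ttk read apart from the one that represents the gene. It had 186, 238 and 154 in FoxO-deficient MP, 47.4, 46.7 and 74.7 in wild-type MP, 40.6, 25.3 and 20.5 in FoxO-deficient LSK cells and 43.2, 5.52 and 24.6 in wild-type LSK cells. The change between FoxO-deficient MP and FoxO-deficient LSK cells was 2.78 (limma over all kept probe sets, adjusted p = 0.0153), and that between FoxO-deficient and wild-type MP was 1.79 (adjusted p = 0.282). It was named after its values were seen.

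Away from the brakes, 2 genes of the related lists were called lower in FoxO-deficient MP than in wild-type MP, where 1.09% of all genes were. They were 1 of 84 other mitosis genes, the kinesin Kif14 (-2.34, adjusted p = 0.0111), and 1 of 38 S phase genes, Ccne1 (cyclin E1). Ccne1, which drives entry into S phase, had -1.02 (adjusted p = 0.0109). In LSK cells none of the other mitosis genes, S phase genes, regulators and brakes was called between the genotypes by limma with all arrays (0.269% of all genes). Without array 2, Shcbp1 was called higher in LSK cells (1.09, adjusted p = 0.0127), where 0.495% of all genes were. In MP Sgo2a and Cenpc1 were then also called higher (5.10% of all genes) and Cdt1 and Lin54 lower (3.43%), beside the brakes.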
